A study of Mus musculus with 15 samples.

Results

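AU015836, A530016L24Rik, 1600025M17Rik, 4930404N11Rik, 9630013A20Rik and 6430548M08Rik are mouse genes that still carry the provisional symbols of the sequencing projects in which they were found. They make up 6 of the 26301 genes counted, and they were selected on these same RNA-seq data because they fell when the histone demethylase JMJD1A was knocked down and were raised by wild-type but not by mutant JMJD1A. The changes in those comparisons are therefore the reason for their selection and are given as a description, without a test. All libraries came from 3T3-L1, a mouse preadipocyte cell line that becomes adipocytes under an adipogenic cocktail, on day 2 of differentiation after induction with insulin at 1.67 uM, dexamethasone at 1 uM and IBMX at 115 ug/mL. Control cells carried a retrovirus without an shRNA (sh-Empty), JMJD1A-KD cells carried an shRNA against Jmjd1a (sh-Jmjd1a), and 3 further JMJD1A-KD lines also expressed a lacZ reporter (LacZ), JMJD1A(WT) or JMJD1A(H1122A), which is defective at the iron-coordination site and is labelled Mut. Each of the 5 groups had 3 libraries, 15 in all. The lines were established by retroviral infection and antibiotic selection, both JMJD1A constructs resist the shRNA, and the sources used here do not say whether the 3 libraries of a group came from separate cultures, so the p-values below measure the spread between these libraries only.

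JMJD1A, encoded by Kdm3a, removes mono- and dimethyl marks from lysine 9 of histone H3, and its catalysis needs bound iron. The dimethyl mark accompanies silent chromatin. During adipocyte differentiation, transcription factors of the C/EBP family and PPARγ switch on the genes of lipid storage, and JMJD1A is one of the chromatin enzymes known to act on fat cell genes. Long noncoding RNAs (lncRNAs) are transcripts without a recognised protein product, and many lie beside or opposite protein-coding genes.

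The 6 genes lay at 6 places on 5 chromosomes, given here in mm9 with GENCODE M1 annotation. AU015836 lay on the plus strand of chrX:91213998-91220809, with 3335 exonic bases. RefSeq classes it as an lncRNA and GENCODE M1 as protein coding. 1600025M17Rik, an lncRNA, lay on the plus strand of chrX:53570785-53573841 with 1071 exonic bases. 9630013A20Rik, an lncRNA also called lncOL1 and known from oligodendrocytes, had its start site on the minus strand of chromosome 14 at base 84876231, inside the body of the protocadherin gene Pcdh17 on the plus strand, and it was not found by name in GENCODE M1. A530016L24Rik, also called Nrac, encodes a small membrane protein known from adipose tissue and heart and lay on the plus strand of chr12:113727659-113738138. 4930404N11Rik, annotated as protein coding, lay on the minus strand of chr10:80825812-80828561, within the body of Mfsd12, which runs on the plus strand. 6430548M08Rik, the mouse counterpart of the human KIAA0513 gene, lay on the plus strand of chr8:122638052-122689206, with 6626 exonic bases.

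RefSeq promoter entries (GRCm38.p6) were found for 3 of the 6 genes: 1600025M17Rik, 9630013A20Rik and 6430548M08Rik. The 250 bases before each start site are printed 5′ to 3′ on the strand of the gene, so that base composition and motifs can be read off. The genes were selected to move alike, and a shared promoter feature was not tested. Capitals mark exact matches to AGGTCA (nuclear receptor half-site), CACGTG (E-box), ACGTG (core of the hypoxia response element, contained in the E-box) and GGGCGG (GC box), on either strand. The coordinates in GRCm38.p6 are chrX:56317358-56317607 on the plus strand for 1600025M17Rik, chr14:84476425-84476674 on the minus strand for 9630013A20Rik and chr8:120113902-120114151 on the plus strand for the first of the 2 entries of 6430548M08Rik.
1600025M17Rik: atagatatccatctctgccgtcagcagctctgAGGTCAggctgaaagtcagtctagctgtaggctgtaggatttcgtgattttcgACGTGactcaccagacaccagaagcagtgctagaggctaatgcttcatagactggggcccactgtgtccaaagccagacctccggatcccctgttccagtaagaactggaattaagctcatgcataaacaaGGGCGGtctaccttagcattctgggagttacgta
9630013A20Rik: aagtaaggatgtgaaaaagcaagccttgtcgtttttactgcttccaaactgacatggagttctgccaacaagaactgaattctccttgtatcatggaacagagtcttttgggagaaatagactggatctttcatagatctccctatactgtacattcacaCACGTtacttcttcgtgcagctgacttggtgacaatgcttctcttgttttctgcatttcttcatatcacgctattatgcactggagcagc
6430548M08Rik: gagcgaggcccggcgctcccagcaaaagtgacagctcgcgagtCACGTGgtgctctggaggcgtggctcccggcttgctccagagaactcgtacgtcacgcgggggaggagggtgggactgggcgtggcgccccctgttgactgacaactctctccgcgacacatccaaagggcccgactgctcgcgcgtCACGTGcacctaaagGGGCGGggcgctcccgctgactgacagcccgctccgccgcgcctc

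Over the full window of 300 bases, which adds the first 50 transcribed bases, the promoter of 6430548M08Rik was rich in G and C (69.7%) and held 35 CpG dinucleotides. The window of 1600025M17Rik had a GC content of 49.0% with 9 CpG dinucleotides, and that of 9630013A20Rik 42.7% with 6. Among all 32851 windows the median was 52.7% with 7 CpG dinucleotides. 1600025M17Rik held AGGTCA at position -218 from the start site, ACGTG at -165 and GGGCGG at -34. 6430548M08Rik held CACGTG at -207 and at -60 and GGGCGG at -45. 9630013A20Rik held ACGTG alone, on the opposite strand at -90. The letters ACGTG were found on either strand in 19.6% of all windows, AGGTCA in 16.3%, GGGCGG in 35.7% and CACGTG in 7.15%. ACGTG was the one motif found in all 3 windows printed, and in 6430548M08Rik its matches were those within the E-boxes. The second entry of 6430548M08Rik, at chr8:120144679-120144978, held 2 CpG dinucleotides and none of the motifs. No window of the 3 genes held the C/EBP motif TTGCNNAA (10.8% of all windows), the cAMP response element TGACGTCA (1.79%), the glucocorticoid half-site AGAACA (19.0%), TATAAA (13.6%), CCAAT (37.4%) or the SREBP motif TCACNCCAC (1.24%). A match is a description of the letters and not a binding site.

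Kdm3a itself was measured first as a check of the labels. It stood at 169, 171 and 183 CPM (read counts relative to the size of the library, normalised by the TMM method over the 15 libraries) in sh-Empty cells and at 128, 127 and 138 CPM in sh-Jmjd1a cells, a log2 fold change of -0.42 (SE 0.0484, edgeR quasi-likelihood test, adjusted p = 2.91e-08). It was at 122, 117 and 119 CPM with LacZ, 1777, 1650 and 1666 CPM with JMJD1A(WT) and 2303, 2213 and 2123 CPM with JMJD1A(H1122A), where counts of the construct and of the endogenous gene are not separated. Every library thus stood on the side that its label gives, and the mutant was expressed above the wild type. The libraries held 11437058 to 25523148 counts (median 12916162), the highest being JMJD1A(WT) replicate 3. All 7 preadipocyte and fibroblast markers and all 6 adipocyte markers were detected in every group, while the summed markers of macrophages, endothelium, epithelium, skeletal muscle and oligodendrocytes stayed below 5 CPM. The oligodendrocyte markers, among which 9630013A20Rik would be looked for, summed to 1.21 to 3.23 CPM. In such bulk libraries, fewer cells of a type and less RNA per cell cannot be told apart.

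AU015836 is annotated as an lncRNA or as protein coding, depending on the source. Its libraries held 15.4, 14.2 and 17.7 CPM in sh-Empty cells and 2.95, 2.01 and 2.24 CPM in sh-Jmjd1a cells. With LacZ they held 3.15, 3.20 and 2.84 CPM, with JMJD1A(WT) 22.4, 22.3 and 18.4 CPM, and with JMJD1A(H1122A) 2.05, 2.202 and 2.16 CPM. The sh-Jmjd1a libraries overlapped those of LacZ and of JMJD1A(H1122A) at the bottom of the range, and each JMJD1A(WT) library lay above each sh-Empty library. These levels rest on 167 to 277 raw counts per sh-Empty library and 25 to 34 per sh-Jmjd1a library. The log2 fold change was -2.75 (SE 0.181) on knockdown, which placed AU015836 at rank 14 from the most reduced of 12272 genes. It was 2.74 (SE 0.153) for JMJD1A(WT) over LacZ, rank 7 from the most raised of 12557 genes, and -3.26 (SE 0.173) for JMJD1A(H1122A) against JMJD1A(WT).

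1600025M17Rik, the other lncRNA of the X chromosome, was the least abundant. It was at 2.26, 4.43 and 3.77 CPM in sh-Empty cells and at 0.607, 1.77 and 1.47 CPM in sh-Jmjd1a cells. It was at 1.27, 1.14 and 1.21 CPM with LacZ, at 4.28, 5.27 and 3.51 CPM with JMJD1A(WT) and at 0.394, 0.734 and 0.519 CPM with JMJD1A(H1122A). The sh-Empty and JMJD1A(WT) ranges overlapped, and all libraries of both lay above those of the other 3 groups. The JMJD1A(H1122A) libraries lay below all LacZ libraries, with 5 to 10 raw counts each against 16 to 19. The log2 fold changes were -1.44 (SE 0.330) on knockdown, 1.78 (SE 0.276) for JMJD1A(WT) over LacZ and -2.89 (SE 0.348) for the mutant against the wild type.

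9630013A20Rik, the third lncRNA by its RefSeq class, changed less. The sh-Empty libraries averaged 12.4 ± 1.68 CPM (SD, n = 3), from 10.5 to 13.6, and the sh-Jmjd1a libraries 7.83 ± 0.180 CPM, from 7.63 to 7.98. In the rescue lines it was 7.21 ± 1.02 CPM with LacZ, from 6.61 to 8.39, 10.7 ± 1.96 CPM with JMJD1A(WT), from 8.86 to 12.7, and 6.26 ± 1.58 CPM with JMJD1A(H1122A), from 4.84 to 7.96. The lowest JMJD1A(WT) library was thus just above the highest LacZ library. The log2 fold changes were -0.66 (SE 0.144), 0.55 (SE 0.156) and -0.77 (SE 0.167) in the same 3 comparisons.

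A530016L24Rik, the adipose and cardiac membrane protein, was the most reduced of the genes that RefSeq classes as protein coding. It was at 13.04, 9.96 and 12.3 CPM in sh-Empty cells and at 3.04, 2.49 and 2.86 CPM in sh-Jmjd1a cells. It was at 4.08, 4.69 and 5.40 CPM with LacZ, at 10.0, 13.2 and 8.49 CPM with JMJD1A(WT) and at 3.23, 1.83 and 1.99 CPM with JMJD1A(H1122A). Here the low groups did not coincide, since every LacZ library lay above every sh-Jmjd1a and every JMJD1A(H1122A) library. The log2 fold change was -2.09 (SE 0.185) on knockdown, rank 40 from the most reduced. It was 1.10 (SE 0.178) for JMJD1A(WT) over LacZ and -2.11 (SE 0.218) for the mutant against the wild type.

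4930404N11Rik was the most abundant of the 6 per library in sh-Empty cells, and it was the one that JMJD1A(WT) brought back least. It was at 43.1, 36.3 and 39.9 CPM in sh-Empty cells and at 22.6, 20.6 and 18.9 CPM in sh-Jmjd1a cells. It was at 23.1, 25.4 and 21.1 CPM with LacZ, at 27.9, 31.1 and 26.4 CPM with JMJD1A(WT) and at 17.3, 17.1 and 19.9 CPM with JMJD1A(H1122A). The JMJD1A(WT) libraries formed an intermediate group that overlapped neither the sh-Empty nor the LacZ libraries. The log2 fold changes were -0.96 (SE 0.0903) on knockdown, 0.28 (SE 0.0906) for JMJD1A(WT) over LacZ and -0.65 (SE 0.0984) for the mutant against the wild type.

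6430548M08Rik, whose protein has no well-established role, changed least on knockdown and between the mutant and the wild type. The sh-Empty libraries averaged 27.0 ± 1.51 CPM (SD, n = 3), against 26.5 ± 2.83 CPM with JMJD1A(WT). It stood at 22.1 ± 1.28 CPM in sh-Jmjd1a cells, 21.7 ± 0.488 CPM with LacZ and 22.2 ± 0.830 CPM with JMJD1A(H1122A). The lowest JMJD1A(WT) library, at 23.5 CPM, was only just above the highest library of the 3 low groups, at 23.4 CPM in sh-Jmjd1a cells. The log2 fold changes were -0.30 (SE 0.0904), 0.30 (SE 0.0898) and -0.27 (SE 0.0920).

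**Figure D1:**
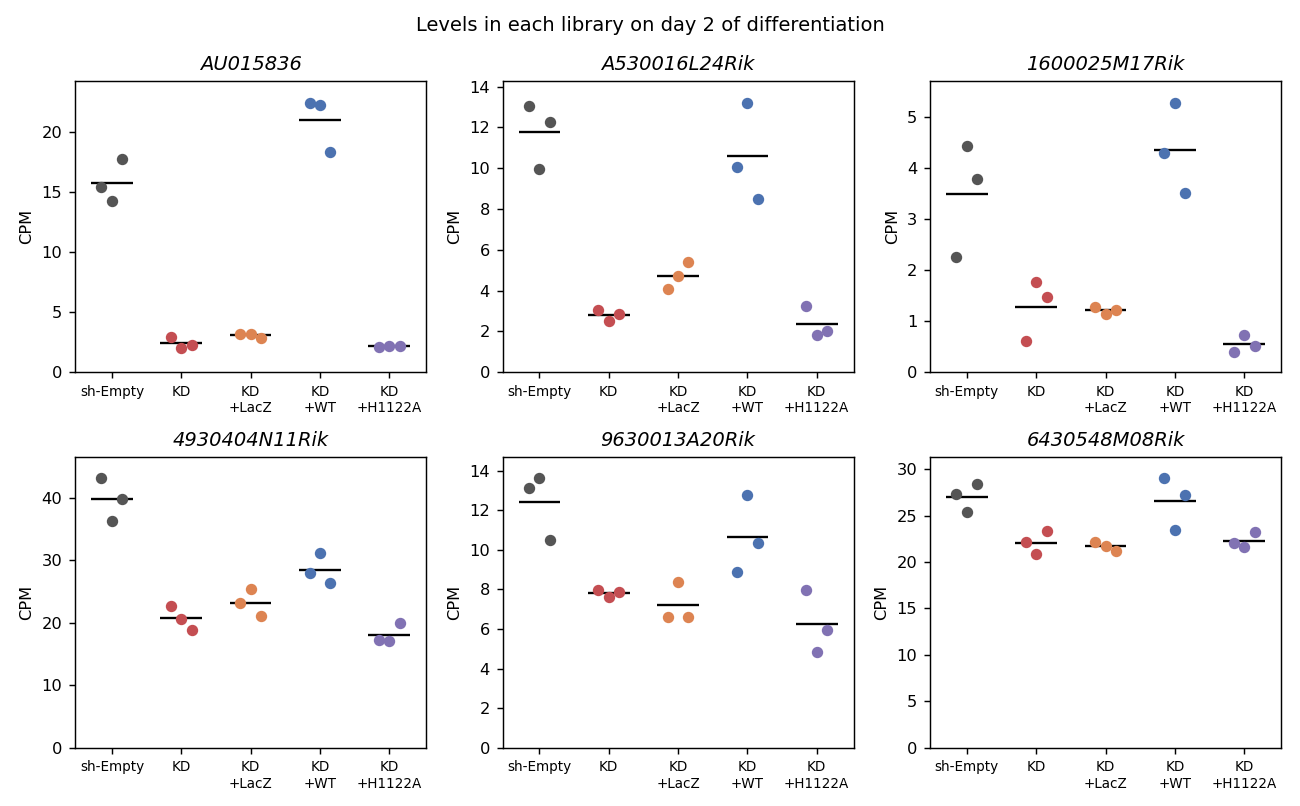
Level of each gene (y axis, CPM from 0, TMM over 15 libraries) in each library, by group (x axis: sh-Empty, JMJD1A-KD, and JMJD1A-KD with LacZ, JMJD1A(WT) or JMJD1A(H1122A)). Points are libraries and bars are means of 3. AU015836 falls from a mean of 15.8 to 2.40 CPM on knockdown and stands at 21.0 CPM with JMJD1A(WT), while 6430548M08Rik moves between 21.7 and 27.0 CPM.

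Levels can be compared between genes per kb of exon, though only roughly. The exonic bases are those of GENCODE M1, while the deposited counts are by Entrez Gene number. For AU015836, which matched 2 GENCODE genes, the one with more exonic bases was used. In sh-Empty cells 4930404N11Rik was at 22.7 CPM per kb, AU015836 at 4.73, A530016L24Rik at 4.46, 6430548M08Rik at 4.08 and 1600025M17Rik at 3.26 CPM per kb. Per length, 4 of these 5 genes thus lay between 3.26 and 4.73 CPM per kb in control cells, while the knockdown changes ran from -0.30 to -2.75 on the log2 scale. No exon length was used for 9630013A20Rik. For 4930404N11Rik, 67.3% of the exonic bases are shared with Mfsd12 on the opposite strand. The strand setting of the counting is not given, so its level, also per kb, may include reads of Mfsd12.

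All 6 genes passed the filter on low counts in both sets of libraries. At an adjusted p below 0.05, the knockdown lowered 6 of 6, as it did 23.9% of the 12272 genes tested. JMJD1A(WT) gave higher levels than LacZ for 6 of 6 (4.98% of 12557 genes), and JMJD1A(H1122A) lower levels than JMJD1A(WT) for 6 of 6 (11.7%). All 3 calls together were met by 296 of 12202 genes (2.43%). These counts restate the selection. Their median log2 fold changes in the 3 comparisons were -1.20, 0.83 and -1.44, while the medians over all genes were all within 0.01 of 0.

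The 3 large responses and the 3 small ones differed in how far their calls depended on the fit. The alternative fits reuse the libraries by which the genes were selected, so they too are a description and no support. AU015836, A530016L24Rik and 1600025M17Rik kept all 3 calls in every alternative fit in which they were tested. For 9630013A20Rik, 4930404N11Rik and 6430548M08Rik the increase with JMJD1A(WT) over LacZ was lost when some single libraries were left out. For 4930404N11Rik these were LacZ replicates 1 and 3, JMJD1A(H1122A) replicate 1 and JMJD1A(WT) replicates 1 and 2 (log2 0.21 to 0.28). For 9630013A20Rik they were LacZ replicates 1 and 3 and JMJD1A(WT) replicates 2 and 3 (log2 0.45 to 0.57), and for 6430548M08Rik LacZ replicates 2 and 3 and JMJD1A(WT) replicates 1 and 3 (log2 0.25 to 0.30). Without LacZ replicate 3, 3 of the 6 genes kept the call. 6430548M08Rik also lost its difference between mutant and wild type without JMJD1A(H1122A) replicate 1 or 2 or JMJD1A(WT) replicate 1 or 3 (log2 fold changes from -0.26 to -0.22).

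**Figure D2:**
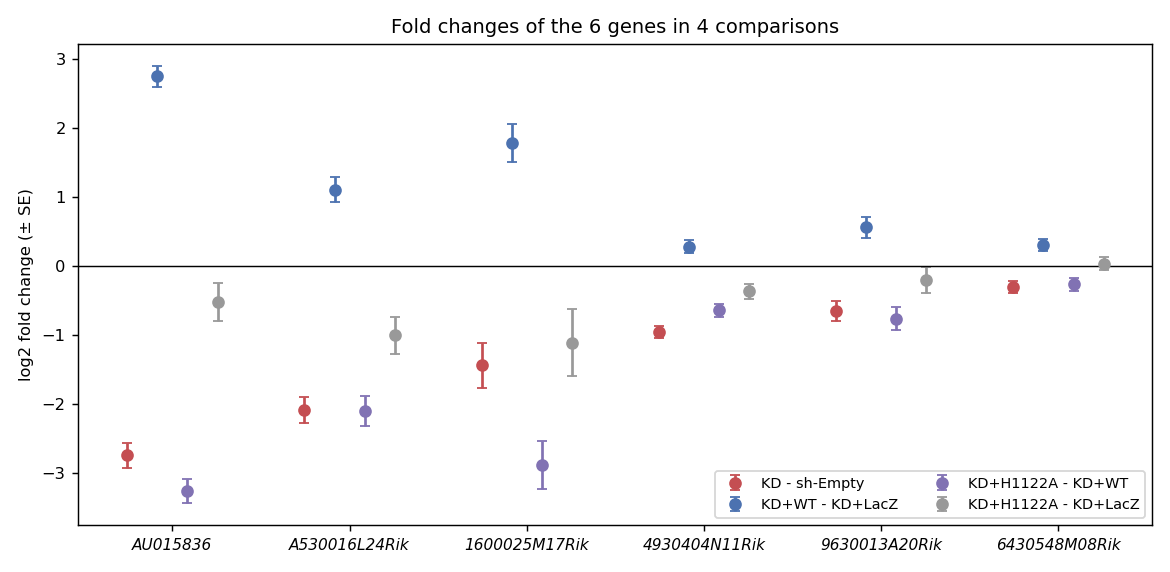
Log2 fold change (y axis; points with bars of 1 SE) of each gene in 4 comparisons: KD minus sh-Empty, and, among the rescue lines, JMJD1A(WT) minus LacZ, JMJD1A(H1122A) minus JMJD1A(WT) and JMJD1A(H1122A) minus LacZ. The knockdown change runs from -2.75 for AU015836 to -0.30 for 6430548M08Rik, and the grey points of the mutant against LacZ lie at or below 0 apart from 6430548M08Rik at 0.03.

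The mutant did not raise any of the 6 genes over LacZ by more than 0.03 on the log2 scale, and for most it lay below. The log2 fold changes of JMJD1A(H1122A) against LacZ were -0.52 (SE 0.273) for AU015836, -1.01 (SE 0.268) for A530016L24Rik, -1.12 (SE 0.482) for 1600025M17Rik, -0.37 (SE 0.105) for 4930404N11Rik, -0.21 (SE 0.188) for 9630013A20Rik and 0.03 (SE 0.0984) for 6430548M08Rik. Of the 6, A530016L24Rik and 4930404N11Rik were called lower, 2 of 6 against 4.46% of all genes tested. The genes were selected as not raised by the mutant, so this count is a description too. Without JMJD1A(H1122A) replicate 2 neither was called, and 1 of them was without LacZ replicate 2 or 3 or JMJD1A(H1122A) replicate 1 or 3.

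How far JMJD1A(WT) brought each gene back also varied. The log2 increase over LacZ came to 99.8% of the size of the knockdown change for AU015836, 98.5% for 6430548M08Rik, 123% for 1600025M17Rik, 84.5% for 9630013A20Rik, 52.8% for A530016L24Rik and 28.9% for 4930404N11Rik. Compared directly with sh-Empty in one fit of 15 libraries, JMJD1A(WT) cells had log2 fold changes of 0.37 (SE 0.106) for AU015836 and -0.50 (SE 0.0833) for 4930404N11Rik, and from -0.22 to 0.24 for the other 4 genes. The 2 lowest shares started from different LacZ levels. A530016L24Rik reached 89.995% ± 20.5 of the sh-Empty mean (SD, n = 3) but started from a LacZ level already at 40.2% ± 5.61, against 23.8% ± 2.37 in sh-Jmjd1a cells. 4930404N11Rik started from 58.4% ± 5.45 and reached 71.6% ± 5.999. Between the LacZ and sh-Jmjd1a lines, which both lack a JMJD1A construct, the log2 fold change was 0.75 (SE 0.251) for A530016L24Rik, 0.36 (SE 0.263) for AU015836 and from -0.12 to 0.17 for the other 4 genes. The sources used here do not say whether the knockdown and rescue sets were grown or sequenced together, and the summed preadipocyte and fibroblast markers stood at 15068 to 16045 CPM in sh-Jmjd1a cells and 18287 to 18478 CPM with LacZ. The same sum stood at 9528 to 9657 CPM in sh-Empty cells and 18952 to 19582 CPM with JMJD1A(WT). It was thus higher in the knockdown that lowered the 6 genes and was not lower again with JMJD1A(WT). Its largest member was Col3a1, with means of 4735 CPM in sh-Empty and 8661 CPM in sh-Jmjd1a cells. Dlk1 alone of the list was lower in the knockdown, with means of 842 CPM in sh-Empty and 502 CPM in sh-Jmjd1a cells. In the rescue lines Dlk1 averaged 559 CPM with LacZ, 755 CPM with JMJD1A(WT) and 389 CPM with JMJD1A(H1122A). The part of these differences in the levels of the 6 genes was not tested.

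**Figure D3:**
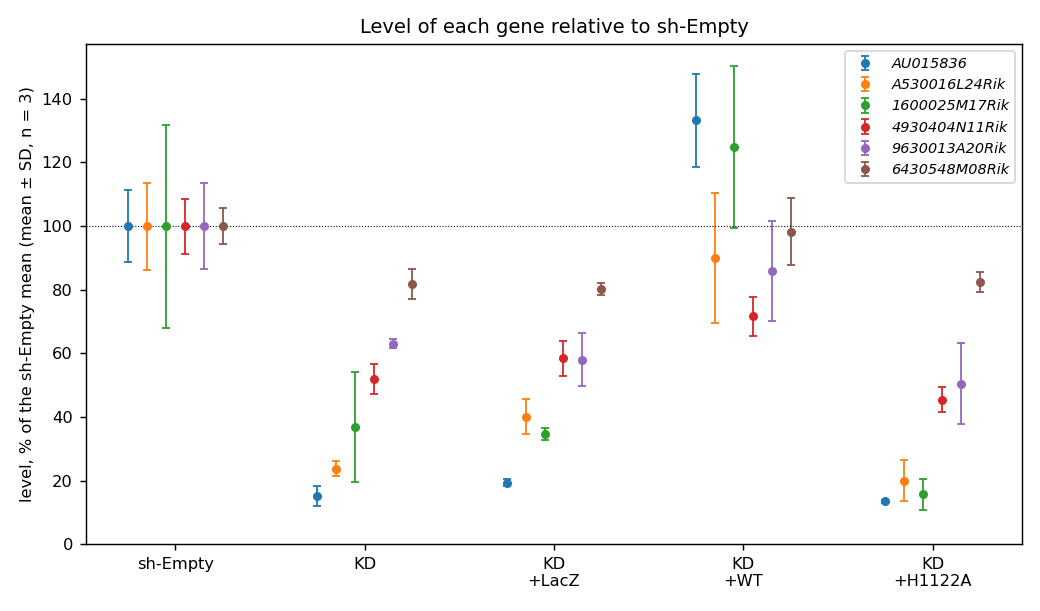
Level of each gene as a percentage of its sh-Empty mean (y axis from 0; points are means of 3 libraries with bars of 1 SD) in the 5 groups (x axis); the dotted line is 100%. With JMJD1A(WT), AU015836 stands at 133% and 4930404N11Rik at 71.6%, and with JMJD1A(H1122A) AU015836, A530016L24Rik and 1600025M17Rik stand at 13.6%, 19.998% and 15.7%.

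The genes around the 6 were not used in choosing them, and they were tested within 100 kb of each gene body. GENCODE M1 lists 39 genes there, of which 26 were matched to the counts, 15 were tested for knockdown and 17 among the rescue lines. On knockdown, 2 of 15 fell (Mfsd12 and Tmem179) and 3 of 15 rose (Nfic, Zfp449 and Inf2), against 23.9% and 22.3% of all genes. With JMJD1A(WT) over LacZ, 2 of 17 rose (Mfsd12 and Pcdh17) and 1 of 17 fell (Mrpl54), against 4.98% and 4.52%. With JMJD1A(H1122A) against JMJD1A(WT), 3 of 17 fell (Mfsd12, Pcdh17 and Tmem179) and 2 of 17 rose (Celf5 and Inf2), against 11.7% and 12.1%. With JMJD1A(H1122A) against LacZ, 1 of 17 fell (Tmem179) and 1 of 17 rose (Inf2), against 4.46% and 4.78%. The neighbours that moved in the direction of their member, Mfsd12, Pcdh17 and Tmem179, overlapped it or ended 0.257 kb from it on the opposite strand, while Fzr1, 0.406 kb from 4930404N11Rik, did not pass the test, and the median log2 fold change of all neighbours tested was -0.03 on knockdown.

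Mfsd12, a transporter of lysosomes and melanosomes at chr10:80820236-80828970, shares 1179 of the 1751 exonic bases (67.3%) of 4930404N11Rik on the opposite strand. It was at 45.03, 46.7 and 41.1 CPM in sh-Empty cells and at 24.5, 22.4 and 25.8 CPM in sh-Jmjd1a cells. It was at 22.8 ± 3.36 CPM (SD, n = 3) with LacZ, 32.7 ± 3.46 CPM with JMJD1A(WT) and 19.8 ± 2.02 CPM with JMJD1A(H1122A). As for 4930404N11Rik, the sh-Empty mean was highest, JMJD1A(WT) came next and JMJD1A(H1122A) was lowest. Its log2 fold change was -0.88 (SE 0.0829, edgeR adjusted p = 8.04e-10) on knockdown, 0.54 (SE 0.0949, edgeR adjusted p = 4.87e-05) for JMJD1A(WT) over LacZ and -0.76 (SE 0.101, edgeR adjusted p = 9.37e-08) for the mutant against the wild type. It was the 1 neighbour of the 15 tested in both sets that met all 3 calls. The strand setting of the counting is not given in the sources used here, so reads of the 2 genes may have been shared and their changes cannot be taken as independent.

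Tmem179, a transmembrane protein gene at chr12:113738395-113749371, faces A530016L24Rik tail to tail. It was at 3.91, 2.47 and 2.82 CPM in sh-Empty cells and at 0.434, 0.402 and 1.93 CPM in sh-Jmjd1a cells, a log2 fold change of -1.68 (SE 0.395, edgeR adjusted p = 0.00095). One sh-Jmjd1a library stood well above the other two, with 25 counts against 5 each, and without that library, replicate 3, the log2 fold change was -2.84. With LacZ it was at 2.54, 2.203 and 2.13 CPM, with JMJD1A(WT) at 2.58, 3.23 and 2.45 CPM and with JMJD1A(H1122A) at 1.02, 1.32 and 1.04 CPM. It was lower with the mutant than with the wild type (log2 -1.24, SE 0.314, edgeR adjusted p = 0.0025) and than with LacZ (log2 -1.02, SE 0.337, edgeR adjusted p = 0.047), where the second call was lost in several alternative fits, among them those without any 1 of the LacZ or JMJD1A(H1122A) libraries. JMJD1A(WT) and LacZ libraries overlapped, with a log2 fold change of 0.22 (SE 0.253, edgeR adjusted p = 0.70), where A530016L24Rik had 1.10.

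Pcdh17, a cell adhesion protocadherin at chr14:84843370-84936867, surrounds the start of 9630013A20Rik. It did not pass the test on knockdown, at 4.69, 4.51 and 6.33 CPM in sh-Empty cells and 4.60, 4.98 and 4.72 CPM in sh-Jmjd1a cells (log2 -0.16, SE 0.196, edgeR adjusted p = 0.54), where 9630013A20Rik changed by -0.66. In the rescue lines it was at 2.61, 3.48 and 2.70 CPM with LacZ, 5.09, 5.04 and 8.07 CPM with JMJD1A(WT) and 3.55, 3.23 and 2.08 CPM with JMJD1A(H1122A). All JMJD1A(WT) libraries lay above those of both other lines. Its log2 fold change was 1.15 (SE 0.219, edgeR adjusted p = 0.00017) for JMJD1A(WT) over LacZ and -1.13 (SE 0.227, edgeR adjusted p = 0.00015) for the mutant against the wild type. Whether Pcdh17 and 9630013A20Rik shared counted reads is likewise not known.

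The other neighbours went another way or were flat. Inf2, an actin-regulating formin 88.9 kb from A530016L24Rik, rose on knockdown by a log2 fold change of 0.28 and was higher with the mutant than with the wild type (0.13) and LacZ (0.21). The call against the wild type was lost without JMJD1A(H1122A) replicate 1 or 3 or JMJD1A(WT) replicate 2 or 3. Nfic, a transcription factor gene 30.4 kb from 4930404N11Rik, rose on knockdown by 0.38, as did the zinc finger gene Zfp449, 25.7 kb from 1600025M17Rik, by 0.38 on the log2 scale. The call of Zfp449 was lost when replicate 2 of either group was left out. Celf5, an RNA-binding protein gene 93.4 kb from 4930404N11Rik, was higher with the mutant than with the wild type by 1.59 on the log2 scale. Its levels were low, with means of 1.31 CPM with the mutant and 0.384 CPM with the wild type, and it was not called without JMJD1A(H1122A) replicate 3. Mrpl54, which encodes a protein of the mitochondrial ribosome, was lower with JMJD1A(WT) than with LacZ by a log2 fold change of -0.33 and lost its call without any 1 LacZ library, JMJD1A(H1122A) replicate 2 or JMJD1A(WT) replicate 2 or 3. For AU015836, Zfx was the single neighbour tested, 99.2 kb away, and it passed the test in none of the 4 comparisons. Fzr1, a cell cycle regulator gene 0.406 kb from 4930404N11Rik, had log2 fold changes of -0.07 on knockdown, -0.12 for JMJD1A(WT) over LacZ and 0.07 for the mutant against the wild type, and it passed the test in none of the 4 comparisons.

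**Figure D4:**
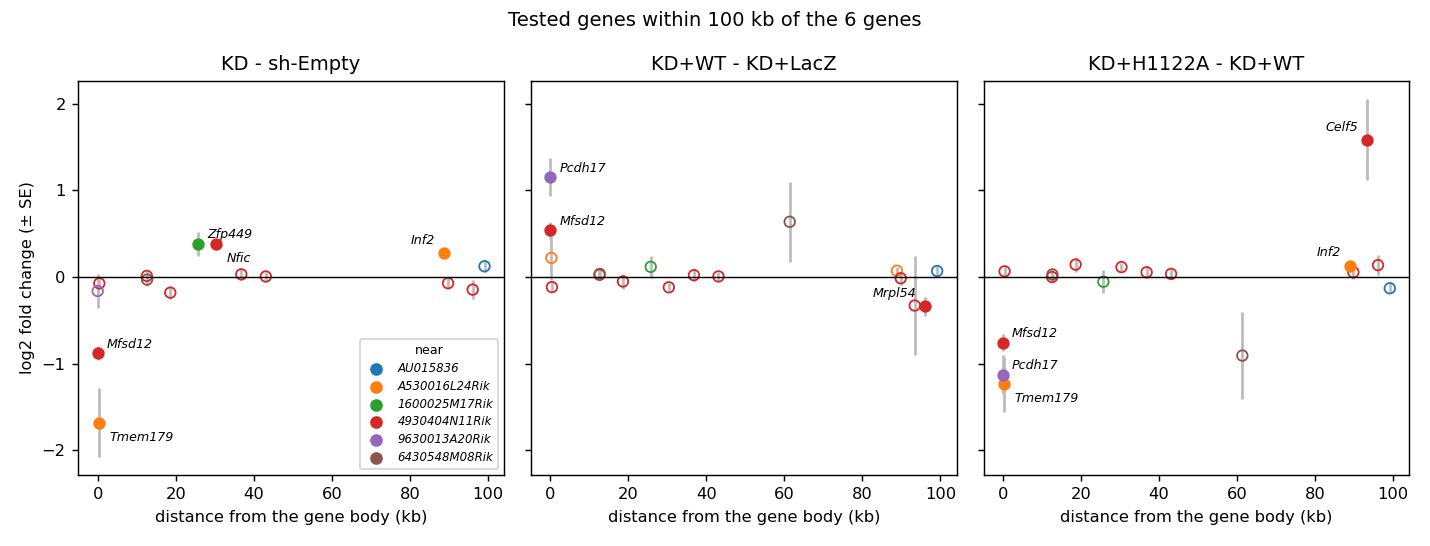
Log2 fold change (y axis; bars of 1 SE) of the tested genes within 100 kb of the 6 genes against their distance from the gene body (x axis, kb), coloured by the gene they are near. Filled and named points have an adjusted p below 0.05. Mfsd12, Tmem179 and Pcdh17 stand at a distance of at most 0.257 kb, and Mfsd12 is at -0.88, 0.54 and -0.76 in the 3 panels.

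Among all genes with provisional names, few met the pattern by which the 6 were selected, in a set of genes whose levels were not matched to those of all genes. Of 2818 such names in the files, 590 were tested for knockdown and 647 among the rescue lines. On knockdown, 75 of 590 fell (12.7%, against 23.9% of all genes), 15 of 647 rose with JMJD1A(WT) over LacZ (2.32%, against 4.98%), and 26 of 647 were lower with the mutant than with the wild type (4.02%, against 11.7%). All 3 calls were met by 7 of the 579 tested in both sets, against 2.43% of all genes. These were the 6 genes, as their selection implies, and C330007P06Rik, the latter with log2 fold changes of -0.27, 0.21 and -0.27. Just inside the threshold stood 4930404N11Rik, through its increase of 0.28 with JMJD1A(WT). Just outside stood D030028A08Rik, at -1.12, 0.44 and -0.77, whose increase with JMJD1A(WT) was not called.

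The 6 genes were set beside lists of adipogenic genes. Of 19 genes of adipocyte function and lipid storage, 18 were tested. Several, Fabp4, Scd1 and Srebf1 among them, are targets that the paper drew in part from the same comparisons of these libraries. The counts for this list are therefore a description and not an independent test. All 18 fell on knockdown (median log2 fold change -1.74), where 23.9% of all genes did, and all 18 rose with JMJD1A(WT) over LacZ (0.84, against 4.98% of all genes). All 18 were lower with the mutant than with the wild type (-1.64, against 11.7%) and 13 of 18 were lower with the mutant than with LacZ (-0.78, against 4.46%). The 18 that rose with JMJD1A(WT) became 15 to 18 when single libraries were left out. Lpl, the lipase that frees fatty acids from lipoproteins, stood at -0.74, 0.10 and -0.37 on the log2 scale for the first 3 of these. Fabp4, a fatty acid carrier, had -1.87, 1.25 and -2.37, Scd1, a fatty acid desaturase, -1.61, 0.57 and -0.68, and Srebf1, a regulator of lipid synthesis, -0.66, 0.21 and -0.20. The medians of the 6 genes, -1.20, 0.83, -1.44 and -0.45, had the same signs. The summed adipocyte markers moved in the same way, from 1238 to 1293 CPM in sh-Empty cells to 344 to 385 CPM in sh-Jmjd1a cells, 435 to 460 CPM with LacZ, 841 to 934 CPM with JMJD1A(WT) and 223 to 244 CPM with JMJD1A(H1122A). Their part in the levels of the 6 genes was not tested.

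Genes that act earlier in differentiation moved in both directions. Of 12 early regulators, 2 fell and 3 rose on knockdown, shares near those over all genes (23.9% and 22.3%), and 2 fell and 5 rose with the mutant against the wild type (11.7% and 12.1% over all genes). Cebpd rose on knockdown (log2 0.59) and Stat5a fell (-0.40), while Cebpb (-0.04) and Nr3c1 (-0.01), the glucocorticoid receptor gene, did not pass the test. With JMJD1A(WT) over LacZ, 2 of the 12 fell and 3 rose, against 4.52% and 4.98% of all genes. With the mutant against LacZ 1 rose, against 4.78%. Of 12 housekeeping genes, 4 fell and 2 rose on knockdown, with a median of -0.01, also near the shares over all genes. In the same list 1 fell with JMJD1A(WT) over LacZ (4.52% over all genes). With the mutant against the wild type 2 fell and 3 rose (11.7% and 12.1% over all genes). In the KDM3 family, Kdm3b changed by log2 0.23 on knockdown and by -0.19 with JMJD1A(WT) over LacZ, both past the test, and Jmjd1c was at 0.09 and -0.13, of which the second passed the test.

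**Figure D5:**
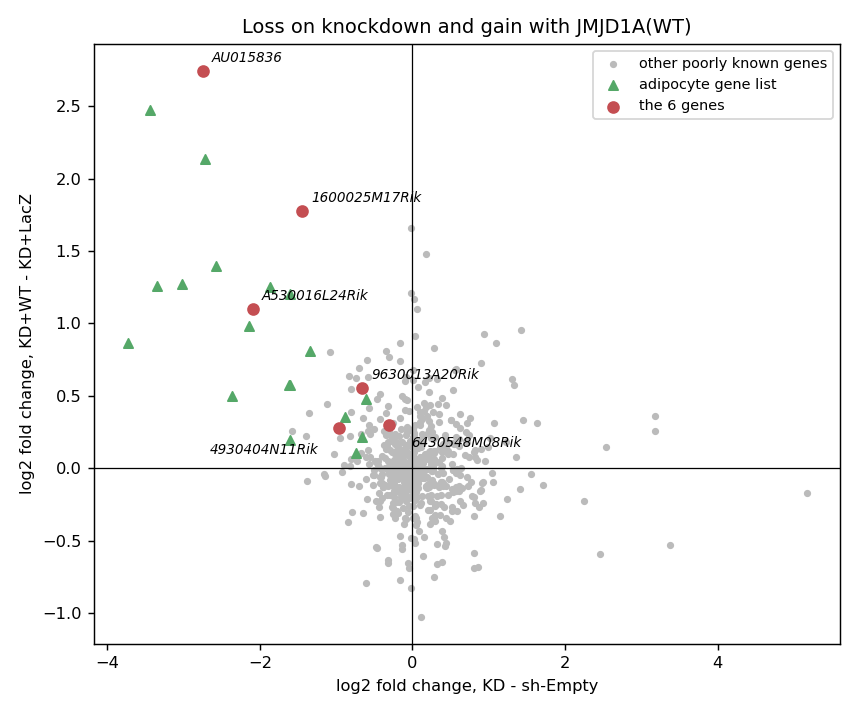
Log2 fold change with JMJD1A(WT) over LacZ (y axis) against that on knockdown (x axis) for the 6 genes (red), the tested adipocyte genes (green triangles) and the other poorly known genes tested in both sets (grey). AU015836 stands at -2.75 and 2.74 and 6430548M08Rik at -0.30 and 0.30, and the 18 adipocyte genes all lie to the upper left of the origin, as do the 6 genes.

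The 6 genes followed each other over the 15 libraries, as their selection implies, with Pearson's r of log2 CPM from 0.62 for 9630013A20Rik and 6430548M08Rik to 0.94 for AU015836 and A530016L24Rik. The genes most like each of them were ranked in the same way among the 10216 genes that averaged 5 CPM or more. The points are 15 libraries that share 5 groups, so these values are descriptions of 5 conditions more than of 15 independent samples. AU015836 was most like Dpep1, Angptl7 and H6pd (r = 0.98 each). A530016L24Rik was most like Col18a1 (0.97), Retn (0.96) and Fabp4 (0.96), and 1600025M17Rik was most like Gramd1b (0.95), Dpep1 (0.93) and Kcnc2 (0.93). 4930404N11Rik was most like Taldo1 (0.98), Dlat (0.98) and Ppm1g (0.97). 9630013A20Rik was most like Bpnt1, Cul2 and Dimt1 (0.90 each), and 6430548M08Rik was most like a gene without a symbol in the RefSeq table (0.91), Cobll1 (0.89) and Magel2 (0.87). Likeness of pattern did not need likeness of size, since the knockdown changes were -2.75 for AU015836, -2.31 for Angptl7, -0.53 for Dpep1 and -0.39 for H6pd on the log2 scale.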

How the data were processed

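RNA-seq was analysed in 15 libraries of 3T3-L1 cells. Reads were trimmed by fastp, mapped to mm9 by HISAT2 and assigned to genes by featureCounts, and the authors deposited the raw counts by Entrez Gene number without scaling them. Strand settings are not given in the sources used here. The paper's methods name a directional kit and the labels another kit of the NEBNext Ultra family. Symbols came from the RefSeq table of GRCm38.p6 (24191 of 26301 genes) and places from GENCODE M1 on NCBIM37 (mm9).

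The 6 genes, the lists and the neighbour windows were chosen with earlier results of these data known. Differences were fitted with edgeR 4.0.16 (R 4.3.3, limma 3.58.1, statmod 1.5.0) by the quasi-likelihood test with TMM, filterByExpr at a minimum count of 10 and Benjamini-Hochberg adjustment over all genes tested, at 0.05. Separate fits were made for the 6 libraries of the knockdown set and the 9 of the rescue set, and levels across sets came from one fit of 15. The method was tested on simulated data. Genes named were the 6, Kdm3a, each neighbour within 100 kb called in any comparison, the 3 genes most like each of the 6 and at most 4 genes per list, those with the highest mean CPM. Zfx, Fzr1, C330007P06Rik, D030028A08Rik and Dlk1 were added after their values were seen. Each library was counted as 1 replicate. Replicate pairs differed by a chi-square per degree of freedom of 2.07 to 5.44, which does not tell whether they came from separate cultures. Alternatives were DESeq2 1.42.0, other size factors, filters, fits and windows, a replicate block and leaving out each library.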

Additional observations from a re-analysis of the deposited data

How the results depend on the processing

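The knockdown calls of the 6 genes held in each alternative fit in which they were tested. The calls for JMJD1A(WT) over LacZ were fewer than 6 with DESeq2 (4) and without any 1 library of LacZ or JMJD1A(WT) or JMJD1A(H1122A) replicate 1 (3 to 5). With at least 10 counts in every library 5 were called, since that filter removed 1600025M17Rik. Leaving out each library in turn gave 6 to 6 of them lower on knockdown, 3 to 6 higher with JMJD1A(WT) over LacZ, 5 to 6 lower with the mutant than the wild type and 0 to 2 lower with the mutant than LacZ. Poorly known names lower with the mutant than the wild type ranged from 17 (without JMJD1A(WT) replicate 3) to 30, against 26. DESeq2 did not call 4930404N11Rik or 6430548M08Rik for JMJD1A(WT) over LacZ, or 6430548M08Rik for the mutant against the wild type. The calls of the 6 genes lie in the comparisons by which they were selected, so they remain descriptions. No direction was reversed. The cause of the lost calls was not tested, but the number of libraries falls in each fit that leaves one out.

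Counts of neighbours are small and moved with the setting. With at least 10 counts in every library, which also removes 1600025M17Rik, 1 neighbour fell on knockdown and 1 rose with the mutant against the wild type. Within 250 kb more genes were tested, 39 for knockdown and 41 among the rescue lines. On knockdown 7 of 39 fell and 11 rose, against 23.9% and 22.3% of all genes. Of the 41, 4 fell and 2 rose with JMJD1A(WT) over LacZ, against 4.52% and 4.98%. With the mutant against the wild type 5 fell and 10 rose, against 11.7% and 12.1%. With the mutant against LacZ 2 fell and 3 rose, against 4.46% and 4.78%. Within 50 kb, where 11 were tested, 0 fell with JMJD1A(WT) over LacZ, and 0 rose with the mutant against the wild type or LacZ. With DESeq2 and with the legacy method 0 fell with JMJD1A(WT) over LacZ. With DESeq2, which gave Tmem179 no adjusted p, with no filter and with all 15 libraries in one fit, 0 fell with the mutant against LacZ. Leaving out single libraries, neighbours lower with JMJD1A(WT) than LacZ numbered 0 to 1, those higher with the mutant than the wild type 0 to 3 and those lower with the mutant than LacZ 0 to 1.

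The replicate numbers did not pair the libraries, since the correlations of same-numbered libraries ran from -0.091 to 0.11. With the replicate block, 6, 6, 6 and 2 of the 6 genes were called in the 4 comparisons as before, and 2 neighbours in place of 1 fell with JMJD1A(WT) over LacZ. Of the 18 genes most like the 6, Spearman's correlation gave 5 of the same and the rescue libraries alone gave 2.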
